A study of Mus musculus with 24 samples.

Results

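The hearts compared here were from *Xirp2* (Xinβ) knockout mice that received the active, S127A form of YAP and from wild-type mice that received GFP, and the question was which differences from GFP-treated wild type remained after YAP treatment. The comparison took 8 of the 24 heart libraries of the series, 4 per group, chosen by genotype and vector and not by any measured value. KO/YAP denotes Xinβ knockout hearts given AAV9 carrying aYAP(S127A), and WT/GFP denotes wild-type hearts given AAV9 carrying GFP. Both groups were injected on postnatal day 1 and collected on postnatal day 7.5, as heart apex per the labels. The study's methods name cardiac ventricles. The groups differed in genotype and in the vector's cargo, so in this comparison the effect of each cannot be told apart. WT/YAP and KO/GFP, with 4 libraries each, and 8 uninjected hearts of the same age and the same 2 genotypes, appear below only for reference.

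In the knockout line a LacZ-Neo cassette replaced part of the gene in the germline, so every cell lacked it, and the line came from R1 embryonic stem cells bred to C57BL6. The vector used the cardiac troponin T promoter, which drives expression in cardiomyocytes. It carried human YAP, so mouse *Yap1* does not measure the transgene. Each library has its own code in the labels, and controls were littermates, but which hearts shared a litter is not given in the sources used here. The 8 libraries held 16209797 to 19444404 reads on genes, and 1 read was worth 0.0544 to 0.0598 CPM, a count scaled to the size of its library. *Ddx3y*, a Y-linked gene, was under 1 CPM in KO/YAP replicates 3 and 4 and in WT/GFP replicate 4 and between 54.2 and 88.9 CPM in the other 5, so the sex make-up of the groups was uneven. WT/GFP replicate 3 held 56.7 CPM of *Ddx3y* beside 97.2 CPM of *Xist*, the X-inactivation transcript, which was at 1.43 to 1.99 CPM in replicates 1 and 2 of both groups and at 639.8 to 938.0 CPM in the 3 without it. All 10 cardiomyocyte markers were detected, and their summed level was 48440 to 52780 CPM in KO/YAP and 45630 to 56910 CPM in WT/GFP.

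Xinβ is an actin-binding, Xin-repeat protein of the intercalated disc, the junction that couples cardiomyocytes end to end, and *Xirp1* encodes the related protein Xinα. The Hippo kinases phosphorylate YAP and keep it out of the nucleus, and the S127A change removes one of the sites they use. Nuclear YAP acts through TEAD factors on genes such as *Ccn2* and *Ccn1* and promotes proliferation of young cardiomyocytes, which leave the cell cycle in the first postnatal days.

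The differences that remained were few. Of 14615 genes tested with limma on log2(CPM + 1), 3 were called at a Benjamini-Hochberg adjusted p below 0.05, which is 0.0205% of the genes. Differences on this scale understate the change of genes with few reads. All 3 fell in KO/YAP: *Xirp2*, its antisense transcript *Gm13601* and *Pigc*. None rose. *Xirp2* and *Gm13601* passed the filter on low values through their WT/GFP libraries alone. Both were below 1 CPM in every KO/YAP library, *Gm13601* at 0, so both had to differ. At an unadjusted p below 0.05 there were 1228 genes, or 8.4%, of which 651 were higher and 577 lower. Over all genes 50.1% of differences were positive and 49.9% negative. edgeR's quasi-likelihood test on reads recovered from the CPM values also called 3, whereas edgeR's exact test called 24, 6 of them higher, and DESeq2 called 44 (0.301%), 21 of them higher. Below, a gene is called where limma called it unless another tool is named. The genes called by both edgeR's exact test and DESeq2 included *Amigo1*, *Clca3a1*, *Inhbb* and *Mylk4*, and those called by DESeq2 and not by the exact test included *Cdkn1a*, *Btg2* and *Egr3*. The median absolute log2 fold change over all genes was 0.12, 95% of genes lay within 0.44, and 85 genes differed by at least 1. The standard error of a gene's log2 fold change was 0.14 in the median, which puts the median half-width of its 95% interval at 0.31, and smaller differences were within the spread between hearts for a typical gene.

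The same scale applied to the other injected groups gives a reference. In one limma fit over the 16 injected libraries, 1993 of 14597 genes (13.7%) were called between KO/GFP and WT/GFP, 3 (0.0206%) between KO/YAP and WT/GFP, 6 (0.0411%) between KO/YAP and WT/YAP, 2156 (14.8%) between KO/YAP and KO/GFP and 0 between WT/YAP and WT/GFP. At an unadjusted p below 0.05, limma gave 4000 (27.4%), 888 (6.08%), 1627 (11.1%), 4316 (29.6%) and 1011 (6.93%) genes in that order. These comparisons share libraries and are not independent of one another. As whole transcriptomes, KO/YAP and WT/GFP libraries lay a mean Euclidean distance of 51.1 apart on log2(CPM + 1), against 48.8 between libraries of the same group. The excess of 2.297 had a one-sided exact permutation p of 0.0571 over 70 divisions, where 0.0286 is the smallest p possible. Without *Xirp2* the excess was 1.90 (exact permutation p = 0.114), without genes of chromosomes X and Y it was 2.52 (p = 0.0286), and without WT/GFP replicate 1 it was 0.893 (p = 0.2). For KO/GFP against WT/GFP the excess was 14.0, for KO/YAP against WT/YAP it was 4.17 and for WT/YAP against WT/GFP it was 1.88.

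*Xirp2* stands first, since it checks the labels. WT/GFP libraries held 102.6, 99, 114.7 and 149.5 CPM, and KO/YAP libraries held 0.789, 0.117, 0.972 and 0 CPM. The 2 groups were far apart, and the WT/YAP libraries at 56.0 to 93.8 CPM and the KO/GFP libraries at 0.176 to 0.497 CPM followed their genotypes. *Xirp2* fell by 6.36 on the log2(CPM + 1) scale (SE 0.23, limma adjusted p = 7.22e-07), beside a log2 fold change of -6.54 between uninjected knockout and wild-type hearts. It passed the filter through WT/GFP libraries alone and is the deleted gene, so this p serves only as a check of the labels. *Xirp1* did not follow it: its WT/GFP libraries ranged from 184.2 to 218.4 CPM and its KO/YAP libraries from 193.4 to 236.0 CPM, with a log2 fold change of 0.06 (SE 0.08, limma adjusted p = 0.859).

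*Gm13601* is an antisense transcript inside *Xirp2* on chromosome 2. It had 30, 27, 22 and 32 reads in the WT/GFP libraries and 0 in all 4 KO/YAP libraries, which therefore had no spread. Against a floor of 3 reads per library (0.172 CPM) its level was at least 9.09-fold lower in KO/YAP (limma adjusted p = 0.0186). The call was lost in 7 of 21 alternative analyses, 5 of them fits that left out 1 library, with an adjusted p of up to 0.106. It was also at 0 in KO/GFP and at 0.788 to 1.09 CPM in WT/YAP. Libraries kept strand, but the sources used here do not state whether reads were counted by strand, so its reads cannot be told apart from those of *Xirp2*.

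*Pigc*, a subunit of the enzyme that starts glycosylphosphatidylinositol anchor synthesis, was the one called gene away from the *Xirp2* locus, on chromosome 1 (GRCm38). WT/GFP libraries held 15.3, 16.9, 15.6 and 15.5 CPM and KO/YAP libraries 9.13, 7.30, 7.61 and 7.21 CPM. The groups did not overlap, but replicate 1 of WT/YAP at 7.97 CPM and replicate 2 of KO/GFP at 8.57 CPM lay as low as KO/YAP while the other 3 libraries of each lay between 13.03 and 17.2 CPM. *Pigc* fell by 0.94 (SE 0.11, limma adjusted p = 0.0317). It was not called in 9 of 23 alternative analyses, among them the fit over all 16 libraries and 6 of the 8 fits that left out 1 library. In uninjected hearts its log2 fold change was 0.11 (limma adjusted p = 0.81).

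**Figure D1:**
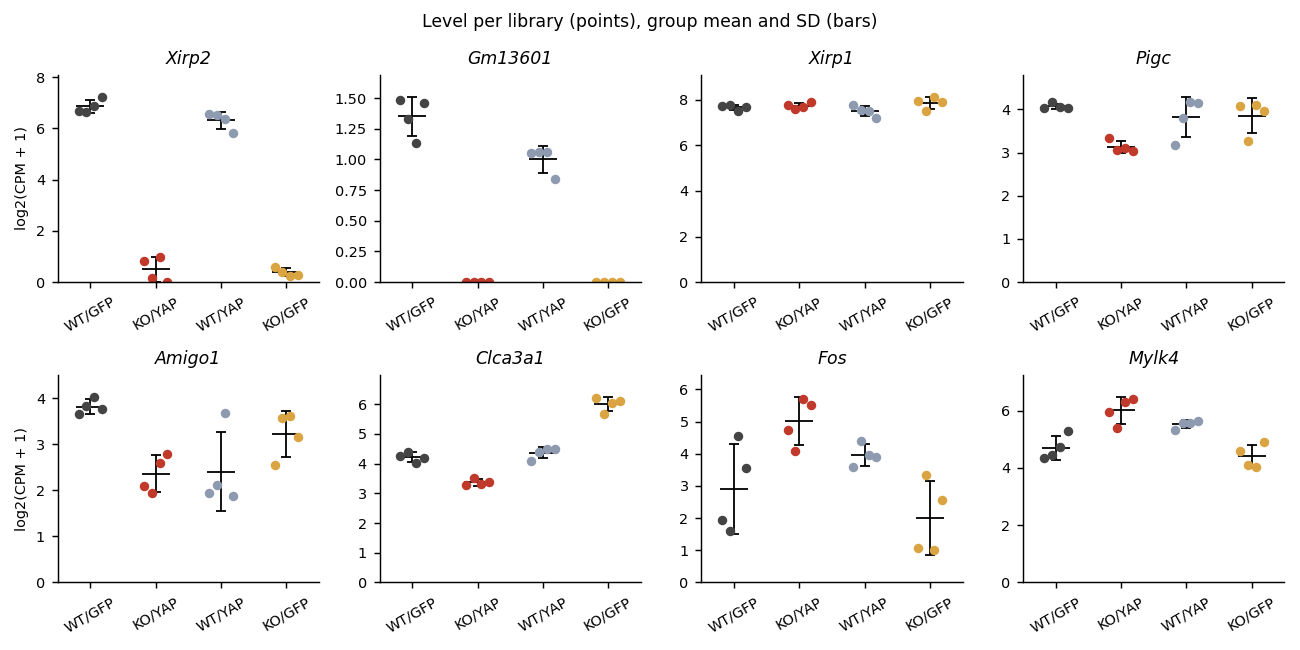
Levels of 8 genes in each injected library, as log2(CPM + 1) on the vertical axis, with libraries grouped by genotype and vector; points are libraries and bars are the group mean ± SD (n = 4). *Xirp2* and *Gm13601* separate by genotype, *Xirp1* does not, and *Clca3a1* is highest in KO/GFP and lowest in KO/YAP.

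Just short of the threshold were *Amigo1* and *Clca3a1*, both lower in KO/YAP without overlap between groups. Over all genes 4.47% did not overlap, 2.14% with KO/YAP higher and 2.33% with KO/YAP lower. *Amigo1*, which encodes a neuronal adhesion protein and potassium channel partner, held 11.7 to 15.3 CPM in WT/GFP and 2.86 to 5.95 CPM in KO/YAP (log2 fold change -1.46, SE 0.19, limma adjusted p = 0.0581). WT/YAP replicate 3 was at 11.9 CPM and the other WT/YAP libraries were as low as KO/YAP, at 2.69 to 3.32 CPM. Limma called *Amigo1* with a pseudocount of 5, with robust moderation, with a sex-linked covariate and without KO/YAP replicate 4.

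*Clca3a1*, a chloride channel regulator expressed in endothelium, differed in another way. WT/GFP libraries held 18.2, 20.1, 15.2 and 17.3 CPM, KO/YAP libraries 8.68, 10.5, 8.92 and 9.38 CPM, and KO/GFP libraries 73.2, 49.8, 64.4 and 68.0 CPM. Knockout hearts given GFP thus lay above, and knockout hearts given YAP below, the wild-type level (KO/YAP against WT/GFP, log2 fold change -0.85, SE 0.12, limma adjusted p = 0.0735). Limma called it in the fit over all 16 libraries, in that over 12 without KO/GFP and with robust moderation. In uninjected hearts it was higher in knockout by 1.51 (limma adjusted p = 0.026).

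The genes that the knockout changed in hearts with no vector give the most direct view of what remained. Uninjected libraries share no library with KO/YAP and WT/GFP. Limma called 1044 of 15598 genes (6.69%) between uninjected knockout and wild type, and 989 of these were tested here, 453 higher and 536 lower in the uninjected knockout. Their median log2 fold changes in uninjected hearts were 0.85 and -0.85. Between KO/YAP and WT/GFP the medians of the same genes were 0.03 and -0.03, and between KO/GFP and WT/GFP, which shares the WT/GFP libraries, they were 0.68 and -0.65. For 662 of the 989 the difference between KO/YAP and WT/GFP was under 25% of the uninjected difference in size. It kept the uninjected direction in 554 genes, or 56.0%, beside 49.2% over all 13728 genes tested in both. That share ranged from 52.4% to 60.3% when 1 library was left out.

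**Figure D2:**
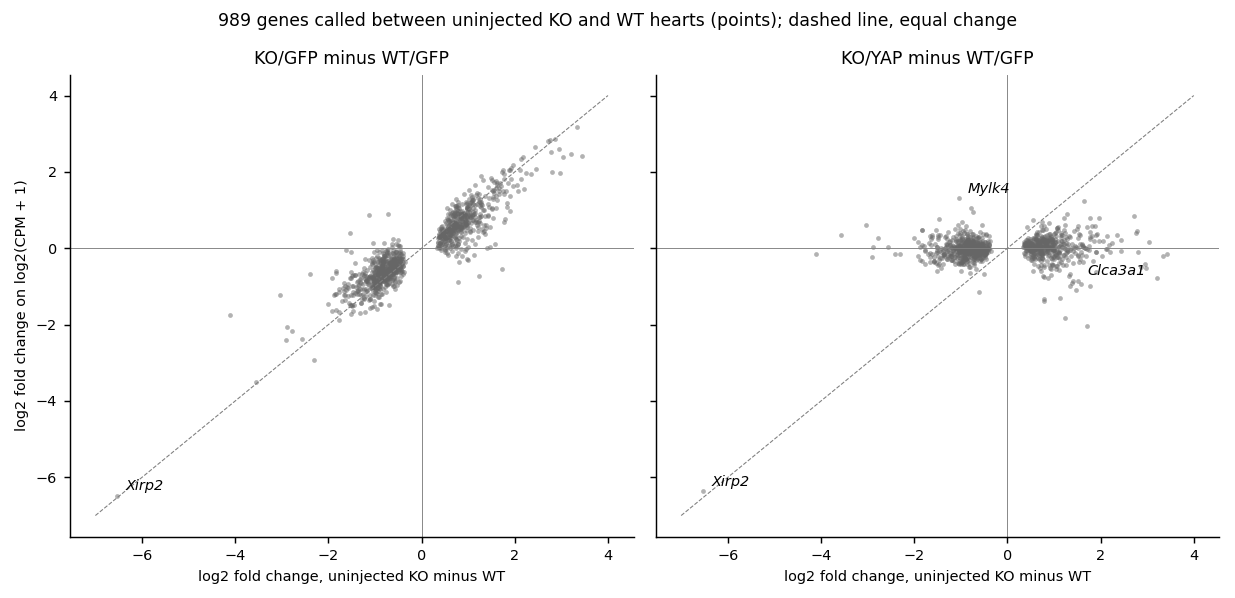
Log2 fold changes on log2(CPM + 1) of the 989 genes called between uninjected knockout and wild-type hearts, with the uninjected difference on the horizontal axis and, on the vertical axis, KO/GFP minus WT/GFP (left) or KO/YAP minus WT/GFP (right). Each point is a gene and the dashed line marks equal change; points gather along the line on the left and near 0 on the right, apart from *Xirp2*.

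Of the 989 genes, 36 kept at least 50% of their uninjected difference in the same direction and 50 had at least 50% of it in the opposite direction. These counts were 36 to 62 and 36 to 70 when 1 library was left out, and the first was the larger without KO/YAP replicate 3 (61 and 54) and without WT/GFP replicate 1 (41 and 36). At an unadjusted p below 0.01, 24 differed in the same direction and 12 in the opposite one, and 1.78% of all genes passed that p. Without 1 library the same direction had 14 to 36 genes, lowest without WT/GFP replicate 1 and highest without KO/YAP replicate 3, and the opposite one 7 to 19, lowest without KO/YAP replicate 1 and highest without WT/GFP replicate 4. Of the 36, limma called only *Xirp2*, and DESeq2 called *Snrpn* as well.

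*Cdkn1a*, the cyclin-dependent kinase inhibitor p21, held 44.9 to 58.7 CPM in WT/GFP, 62.7 to 93.5 CPM in KO/YAP and 76.5 to 124.5 CPM in KO/GFP (KO/YAP against WT/GFP, log2 fold change 0.58, SE 0.13, limma adjusted p = 0.499). *Inhbb*, the inhibin and activin βB subunit, held 1.39 to 1.91 CPM in WT/GFP and 2.93 to 4.44 CPM in KO/YAP, but WT/YAP libraries also held 2.80 to 4.34 CPM. *Myc* held 3.89 to 5.98 CPM in WT/GFP, 6.82 to 9.66 CPM in KO/YAP and 6.38 to 8.02 CPM in WT/YAP. KO/GFP libraries held 7.13 to 15.1 CPM of *Inhbb* and 9.15 to 20.1 CPM of *Myc*, and every WT/GFP library lay below those of the other groups. The imprinted gene *Snrpn*, a spliceosome component, held 49.7 to 63.9 CPM in WT/GFP, 65.8 to 91.0 CPM in KO/YAP and 47.5 to 60.8 CPM in WT/YAP and 65.8 to 99.1 CPM in KO/GFP, so that both knockout groups lay above both wild-type groups. *Enkur*, *Rasgrf2*, *Vwa8* and *Zim1* were the others of the 8 higher genes named by rank.

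Lower genes included *Rrm2*, the ribonucleotide reductase subunit that supplies DNA synthesis. It held 84.3 to 99.9 CPM in WT/GFP, 64.7 to 75.2 CPM in KO/YAP and 14.5 to 65.7 CPM in KO/GFP (KO/YAP against WT/GFP, log2 fold change -0.33, SE 0.08, limma adjusted p = 0.499). *Mest*, an imprinted gene of growing tissue, held 244.5 to 341.4 CPM in WT/GFP, 188.9 to 224.0 CPM in KO/YAP and 354.3 to 464.8 CPM in WT/YAP. *Sox4*, a transcription factor of developing heart, held 137.9 to 181.1 CPM in WT/GFP and 86.3 to 125.3 CPM in KO/YAP, but 123.9 to 258.5 CPM in KO/GFP. *Timeless*, a replication fork protein, held 20.1 to 29.2 CPM in WT/GFP and 15.3 to 18.1 CPM in KO/YAP. In all 4 genes every KO/YAP library lay below every WT/GFP library.

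The 12 genes in the opposite direction were looked at after their values were seen. In 8 of them the uninjected knockout was lower than wild type and KO/YAP was higher than WT/GFP. *Mylk4*, a muscle myosin light chain kinase, held 19.5, 20.6, 25.9 and 37.8 CPM in WT/GFP and 60.7, 40.7, 78.2 and 84.1 CPM in KO/YAP (log2 fold change 1.31, SE 0.25, limma adjusted p = 0.418). WT/YAP libraries held 38.8 to 48.6 CPM, above every WT/GFP library and overlapping with KO/YAP. *Sema3c*, a guidance cue of outflow tract development, held 28.4 to 36.3 CPM in WT/GFP, 40.9 to 44.7 CPM in KO/YAP and 7.93 to 12.9 CPM in KO/GFP. *Ston2*, an endocytic adaptor, held 4.73 to 6.14 CPM in WT/GFP, 7.15 to 8.12 CPM in KO/YAP and 1.58 to 2.42 CPM in KO/GFP. *Pcsk6*, a convertase that processes growth factors and corin, had overlapping groups, with 74.2 to 96.5 CPM in WT/GFP and 91.4 to 119.0 CPM in KO/YAP. *Hcn2*, a pacemaker channel, held 19.7 to 24.4 CPM in WT/GFP and 26.3 to 29.2 CPM in KO/YAP. *4932442E05Rik*, *Egr3* and *Spata13* complete the 8. *Aldh1b1*, *Clca3a1*, *St3gal5* and *mt-Tp* were the 4 with the reverse order.

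Apart from the pair of Xin genes, the lists with the largest medians were the erythroid, interferon-stimulated and immediate early genes. Immediate early genes encode transcription factors and feedback regulators made within minutes of a stimulus. All 22 tested were higher in KO/YAP, 17 of them at an unadjusted p below 0.05 beside 4.45% of all genes, with a median log2 fold change of 0.62 beside 0.00 over all genes. None was called by limma, and DESeq2 called 2. The number at that p ranged from 10 to 21 when 1 library was left out and was lowest without WT/GFP replicate 2. *Fos*, an AP-1 subunit, held 2.81, 2.01, 22.3 and 10.8 CPM in WT/GFP and 25.8, 15.9, 51.6 and 44.6 CPM in KO/YAP (log2 fold change 2.11, SE 0.61, limma adjusted p = 0.529). *Nr4a1*, an orphan nuclear receptor, held 12.2, 10.9, 180.1 and 121.5 CPM in WT/GFP and 104.5, 120.6, 189.5 and 219.7 CPM in KO/YAP (log2 fold change 1.82, SE 0.82, limma adjusted p = 0.595). In both genes WT/GFP replicates 1 and 2 were below every KO/YAP library and replicate 3 was within their range, as was replicate 4 for *Nr4a1*.

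Other members gave smaller differences with less overlap. *Egr3* held 1.62 to 4.02 CPM in WT/GFP and 5.36 to 10.9 CPM in KO/YAP, a log2 fold change of 1.06 (SE 0.26, limma adjusted p = 0.499). *Klf6* held 67.7 to 99.8 CPM in WT/GFP and 106.2 to 138.2 CPM in KO/YAP, and *Btg2*, an antiproliferative target of p53, held 29.5 to 44.1 and 46.0 to 102.3 CPM. The mean level of the list, taken relative to the mean of all tested genes in the same library and set to 0 at the WT/GFP mean, was -0.45, -0.51, 0.63 and 0.33 in WT/GFP and 0.60, 0.58, 1.18 and 1.00 in KO/YAP. The groups overlapped by one WT/GFP library. WT/YAP libraries lay at 0.32 to 0.72 and KO/GFP libraries at -0.37 to 0.05. Against WT/GFP the list's median log2 fold change was thus 0.62 in KO/YAP and 0.44 in WT/YAP, with shared WT/GFP libraries, and it was 0.16 between KO/YAP and WT/YAP and -0.30 between uninjected knockout and wild type.

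Interferon-stimulated genes, which encode antiviral proteins and are switched on through STAT and IRF factors, showed the widest spread between control hearts. All 38 tested were lower in KO/YAP, 11 at an unadjusted p below 0.05 beside 3.95% of all genes, and the median log2 fold change was -0.72. *Irf1*, an interferon-induced transcription factor, held 58.9, 34.4, 14.4 and 13.4 CPM in WT/GFP and 10.8, 7.54, 7.89 and 12.2 CPM in KO/YAP (log2 fold change -1.33, SE 0.40, limma adjusted p = 0.544). *Gbp3*, a guanylate-binding GTPase, held 125.8, 31.9, 8.59 and 9.92 CPM in WT/GFP and 6.60, 7.30, 10.8 and 7.32 CPM in KO/YAP. *Ifit1*, which binds foreign RNA caps, held 7.89, 2.79, 0.816 and 1.04 CPM in WT/GFP and 0.564, 0.701, 0.343 and 1.20 CPM in KO/YAP. For *Gbp3* and *Ifit1*, WT/GFP replicate 1 was far above, and replicate 2 somewhat above, every KO/YAP library, while replicates 3 and 4 lay in their range. *Isg15* shared the high replicate 1, at 14.3 CPM beside 0.816 to 3.07 CPM in the other WT/GFP libraries and 1.37 to 1.64 CPM in KO/YAP.

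The list's relative level was 1.19, 0.16, -0.75 and -0.60 in WT/GFP and -0.86 to -0.60 in KO/YAP, so that WT/GFP replicates 3 and 4 lay within or at the edge of the KO/YAP range. Without WT/GFP replicate 1 the median log2 fold change of the list was -0.29, and 4 of 38 members passed the unadjusted p. That number ranged from 4, also without WT/GFP replicate 2, to 31 without WT/GFP replicate 3, and it was 27 with edgeR's quasi-likelihood test. WT/YAP libraries lay at -0.67 to -0.26 and KO/GFP libraries at -0.32 to 0.09, and the median between WT/YAP and WT/GFP, which shares the WT/GFP libraries, was -0.42. In uninjected hearts the same list had a median log2 fold change of 0.61, higher in the knockout. Macrophage markers, all 10 tested, had no member at an unadjusted p below 0.05, and their summed level was 131.8 to 212.0 CPM in WT/GFP and at most 178.5 CPM in KO/YAP. Their relative level in WT/GFP was 0.28, 0.14, -0.24 and -0.18, high in the same replicates as the interferon genes, and it was -0.21 to 0.21 in KO/YAP. Their part in the interferon genes was not tested.

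Part of these members hold a common element in their promoters. Over the 250 bases before the start of the gene in RefSeq annotation (GRCm38.p6), the interferon response core, 2 copies of GAAA with any 2 bases between them on either strand, was found in 12 of 32 matched members (37.5%), beside 936 of 27025 genes (3.46%). The cyclic AMP response element TGACGTCA, searched separately with no account of overlap, was found in 2 of 18 matched immediate early genes (11.1%), beside 1.77% of all genes. A match is a description of the letters and not a measured binding site. The 4 promoters below are shown because *Ifit1*, *Gbp3* and *Isg15* carry the spread between WT/GFP hearts described above and *Btg2* carries the element of the immediate early list. Each runs 5′ to 3′ on the strand of its gene and ends at the base before its start, with the matched motif in capitals.
Ifit1, chr19:34640639-34640888, plus strand, cores starting 104 and 85 bases before the gene: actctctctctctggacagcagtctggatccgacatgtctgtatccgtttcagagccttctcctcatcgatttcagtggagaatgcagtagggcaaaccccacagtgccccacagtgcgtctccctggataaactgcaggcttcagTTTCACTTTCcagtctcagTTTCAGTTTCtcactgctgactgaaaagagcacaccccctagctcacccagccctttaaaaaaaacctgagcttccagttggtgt
Gbp3, chr3:142559794-142560043, plus strand, overlapping cores starting 45 and 39 bases before the gene: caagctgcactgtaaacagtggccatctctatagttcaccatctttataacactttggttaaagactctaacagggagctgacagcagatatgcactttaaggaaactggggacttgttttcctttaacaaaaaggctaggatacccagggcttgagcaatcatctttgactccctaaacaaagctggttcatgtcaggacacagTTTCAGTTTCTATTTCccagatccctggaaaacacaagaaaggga
Isg15, chr4:156200819-156201068, minus strand, overlapping cores starting 78, 72 and 66 bases before the gene: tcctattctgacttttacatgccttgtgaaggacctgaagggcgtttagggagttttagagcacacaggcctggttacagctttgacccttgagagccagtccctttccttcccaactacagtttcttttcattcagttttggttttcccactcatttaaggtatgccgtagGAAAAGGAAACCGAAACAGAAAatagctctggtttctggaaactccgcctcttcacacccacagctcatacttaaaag
Btg2, chr1:134079156-134079405, minus strand, element starting 166 bases before the gene: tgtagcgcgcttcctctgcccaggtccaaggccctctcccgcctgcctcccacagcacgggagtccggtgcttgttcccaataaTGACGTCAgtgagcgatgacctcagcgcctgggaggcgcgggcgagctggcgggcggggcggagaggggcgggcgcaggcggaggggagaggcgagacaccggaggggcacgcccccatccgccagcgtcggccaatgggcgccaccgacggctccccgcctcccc

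**Figure D3:**
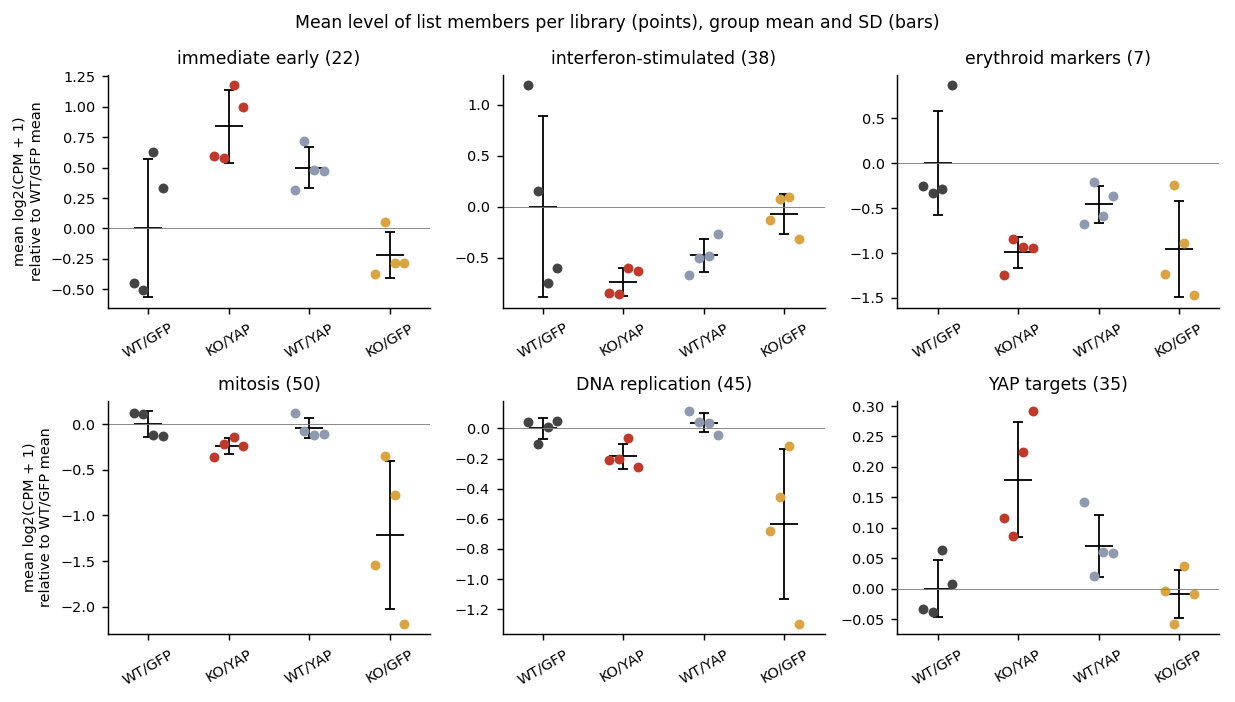
Mean log2(CPM + 1) of 6 gene lists per injected library, relative to the mean of all tested genes in that library and to the WT/GFP mean, with the number of members tested in parentheses; points are libraries and bars are the group mean ± SD (n = 4). WT/GFP replicate 1 sets the interferon spread at 1.19, and all 4 KO/YAP libraries lie below WT/GFP in the erythroid panel.

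Erythroid genes separated the groups more cleanly. Of 10 markers 7 were tested, and *Hemgn*, *Ahsp* and *Epb42* are not listed in the file. All 7 were lower in KO/YAP, with a median log2 fold change of -1.11 beside -0.34 between uninjected knockout and wild type. Of these, 6 had an unadjusted p below 0.05 and no overlap. Over all genes 3.95% were lower at that p and 2.33% were lower without overlap. *Hba-a2*, an α-globin gene, held 879.3, 782.6, 915.9 and 1941 CPM in WT/GFP and 454.0, 492.3, 496.5 and 469.0 CPM in KO/YAP (log2 fold change -1.14, SE 0.24, limma adjusted p = 0.499). *Alas2*, the heme synthesis enzyme of red cells, held 46.5, 53.2, 40.4 and 127.4 CPM in WT/GFP and 23.8, 28.8, 28.8 and 26.9 CPM in KO/YAP. WT/GFP replicate 4 was the highest library for both, and the other 3 WT/GFP libraries still lay above all KO/YAP libraries. *Hba-a1* and *Hba-a2* are near-identical copies, as are *Hbb-bs* and *Hbb-bt*, so reads may have been split between them.

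The summed level of the 7 markers was 3393 to 8425 CPM in WT/GFP, 1866 to 2061 CPM in KO/YAP, 2665 to 3884 CPM in WT/YAP and 1213 to 3119 CPM in KO/GFP. Without WT/GFP replicate 4 the median log2 fold change was -0.75, and limma then called 13 genes in all, among them *Hba-a1*, *Hba-a2*, *Hbb-bs* and *Hbb-bt*. In a piece of heart tissue fewer red cells and less globin RNA per red cell cannot be told apart.

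Cell cycle genes stood close to the wild-type level with a small offset. Of 50 mitosis genes 49 were lower in KO/YAP, 17 at an unadjusted p below 0.05 beside 3.95% of all genes and none called, with a median log2 fold change of -0.23 beside -1.48 between uninjected knockout and wild type. Of 45 DNA replication genes 41 were lower, 13 at that p beside the same 3.95% and none called, with a median of -0.19 beside -0.92 in uninjected hearts. *Mki67*, the proliferation antigen, held at least 156.4 CPM in each WT/GFP library, 128.3 to 152.9 CPM in KO/YAP, 145.2 to 208.1 CPM in WT/YAP and 20.6 to 148.1 CPM in KO/GFP. *Smc4*, a condensin subunit, held 97.8 to 122.2 CPM in WT/GFP and 72.6 to 95.7 CPM in KO/YAP (log2 fold change -0.42, SE 0.11, limma adjusted p = 0.499). *Cenpi*, *Hmmr* and *Kif2c*, which act at kinetochores and the spindle, had log2 fold changes of -0.44, -0.37 and -0.45 without overlap. *Top2a*, whose product untangles chromosomes, held 86.7 to 115.5 CPM in WT/GFP and 80.9 to 96.9 CPM in KO/YAP, with overlap.

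The relative level of the mitosis list was -0.13 to 0.13 in WT/GFP, -0.36 to -0.14 in KO/YAP, -0.11 to 0.12 in WT/YAP and -2.19 to -0.35 in KO/GFP. KO/YAP lay just below WT/GFP with no overlap, and above 3 of the 4 KO/GFP libraries and beside the fourth. The number of mitosis genes at an unadjusted p below 0.05 ranged from 7 to 20 when 1 library was left out and was lowest without KO/YAP replicate 1, and that of DNA replication genes ranged from 5, without replicate 4 of either group, to 15. In the fit over all 16 injected libraries, whose spread includes that of KO/GFP, each list had 1 member at that p.

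YAP targets and Hippo components were slightly above the wild-type level. Endogenous *Yap1* held 83.7 to 89.6 CPM in WT/GFP and 81.7 to 92.6 CPM in KO/YAP, and *Wwtr1*, which encodes its paralogue TAZ, held 105.4 to 112.8 and 110.2 to 123.7 CPM. Of 35 YAP targets 29 were higher, 7 at an unadjusted p below 0.05 and 2 lower at that p, beside 4.45% and 3.95% of all genes, with a median log2 fold change of 0.15 beside 0.08 between WT/YAP and WT/GFP. The list's relative level was -0.04 to 0.06 in WT/GFP and 0.09 to 0.29 in KO/YAP, without overlap. The 7 higher members were 2 to 7 when 1 library was left out, lowest without WT/GFP replicate 1, and the median was 0.09, without KO/YAP replicate 4, to 0.20, without WT/GFP replicate 4. *Ccn2*, a matricellular protein and TEAD target, held 65.0, 51.3, 74.2 and 68.7 CPM in WT/GFP and 95.8, 76.8, 204.9 and 166.7 CPM in KO/YAP (log2 fold change 0.96, SE 0.27, limma adjusted p = 0.529). DESeq2 called it, and limma did not. Its KO/GFP libraries, which received no YAP, held 86.3 to 137.4 CPM. *Ccn1*, which is related to it, held 21.9 to 49.7 CPM in WT/GFP and 41.2 to 113.5 CPM in KO/YAP, and *Ankrd1*, a titin-binding target of YAP, held 546.3 to 630.3 and 483.9 to 1291 CPM. Both overlapped. Of 30 Hippo pathway components 6 were higher and 1 lower at that p, and their relative level was 0.09 to 0.12 in KO/YAP and -0.04 to 0.05 in WT/GFP. The 6 became 1 without KO/YAP replicate 4 and 2 without WT/GFP replicate 1, and their median of 0.07 was 0.12 without WT/GFP replicate 2 and 0.04 without WT/GFP replicate 1. *Tead2*, one of the TEAD factors and the lower member, held 21.6 to 24.7 CPM in WT/GFP and 16.6 to 19.3 CPM in KO/YAP, without overlap.

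Genes of the contractile apparatus, the disc and calcium handling had small median differences. Of 32 intercalated disc genes 26 were higher, with a median log2 fold change of 0.11. At an unadjusted p below 0.05, 5 were higher and none lower, beside 4.45% and 3.95% of all genes. The 5 were 3 to 11 when 1 library was left out, highest, with 2 lower, without KO/YAP replicate 3. *Csrp3*, a mechanosensing protein of the Z-disc, held 465.4 to 628.3 CPM in WT/GFP and 658.1 to 796.7 CPM in KO/YAP (log2 fold change 0.38, SE 0.11, limma adjusted p = 0.529). *Tln2*, an integrin-linking talin of muscle, held 96.6 to 134.5 and 135.9 to 177.8 CPM. Of 21 calcium handling genes 4 were higher and 2 lower at that p, beside 4.45% and 3.95% of all genes, with a median of 0.11, and DESeq2 called 1. When 1 library was left out there were 3 to 6 higher and 0 or 1 lower, and the median was 0.07, without WT/GFP replicate 1, to 0.14. The lower ones were *S100a1*, a calcium sensor that acts on SERCA2, at a mean of 223.4 CPM in WT/GFP and 187.3 CPM in KO/YAP, and *Itpr2*, an inositol trisphosphate receptor, at 48.1 and 39.1 CPM, both overlapping. *Atp2a2*, the calcium pump SERCA2, held 4703 to 6923 CPM in WT/GFP and 6484 to 9249 CPM in KO/YAP, with overlap, and *Casq2*, which stores calcium in the sarcoplasmic reticulum, held 414.7 to 515.4 and 534.0 to 983.6 CPM. The sarcomere list had 4 members higher and 3 lower at that p among 39, beside the same 4.45% and 3.95% of all genes. There were 2 to 7 higher and 0 to 2 lower when 1 library was left out. Its median of 0.05 was 0.0016 without WT/GFP replicate 2 and at most 0.09 when another library was left out. *Myh7*, the fetal myosin heavy chain, held 1236 to 1545 CPM in WT/GFP, 1142 to 1325 CPM in KO/YAP and 1372 to 4218 CPM in KO/GFP. *Nppa*, the atrial natriuretic peptide gene that stressed ventricle re-expresses, held 302.1, 172.4, 87.8 and 113.3 CPM in WT/GFP and 28.1, 65.7, 162.9 and 76.9 CPM in KO/YAP, and its groups overlapped.

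Metabolic and stress lists leaned weakly one way or the other. Of 39 fatty acid genes 6 and of 27 heat shock and endoplasmic reticulum stress genes 6 were higher at an unadjusted p below 0.05, with none lower, beside 4.45% of all genes, and the medians were 0.10 and 0.15. Of 27 ketone, fasting and glucocorticoid genes 7 were higher and 1 lower at that p, with a median of 0.11 beside 1.04 in uninjected hearts, and DESeq2 called 2. These counts moved with single libraries: the higher members were 1 to 11 in the fatty acid list (1 without KO/YAP replicate 2 or 4 or WT/GFP replicate 1 or 2), 3 to 8 in the heat shock list (3, and 1 lower, without KO/YAP replicate 3) and 3 to 9 in the ketone list (3 without KO/YAP replicate 4 or WT/GFP replicate 1 or 2). Up to 2 fatty acid genes were lower at that p, without WT/GFP replicate 4. The fatty acid median was 0.06, without WT/GFP replicate 2 or KO/YAP replicate 4, to 0.16, without KO/YAP replicate 3, and the ketone median was 0.07, without KO/YAP replicate 4, to 0.19, without KO/YAP replicate 3. Without KO/YAP replicate 1 the heat shock median was 0.09. *Errfi1*, a feedback inhibitor of the epidermal growth factor receptor, held 25.9 to 36.9 CPM in WT/GFP and 40.8 to 48.3 CPM in KO/YAP. *Dnajb9* and *Bag3*, chaperone genes, were higher by 0.51 and 0.29 without overlap. *Oxct1*, the enzyme with which heart burns ketone bodies, held 359.0 to 419.7 and 295.4 to 335.1 CPM. No member of the 22 NF-κB and inflammation genes passed the unadjusted p.

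Housekeeping lists of short genes leaned low. Of 88 cytosolic ribosomal protein genes 84 were lower, of 86 nuclear respiratory chain genes 77 were lower, and of 78 mitochondrial ribosomal protein genes 68 were lower, with medians of -0.12, -0.12 and -0.10, while 4 (4.55%), 4 (4.65%) and 7 (8.97%) members passed the unadjusted p beside 3.95% of all genes. Without WT/GFP replicate 1 the medians were -0.04, -0.06 and -0.05 with 1, 2 and 1 members at that p, and without WT/GFP replicate 4 they were -0.19, -0.17 and -0.14 with 27, 17 and 11. Over all genes the log2 fold change moved with transcript length. Its median was -0.07 in the 2923 genes with the shortest summed exons and 0.06 in the group of like size with the longest, and Spearman's rho over 14609 genes was 0.23, where genes share libraries and are not replicates. The shortest genes were at 0.09 in WT/GFP replicate 1 and at -0.10 in KO/YAP replicates 1 and 2, so the trend differed between hearts of a group as well. The part of length in the list values was not tested.

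**Figure D4:**
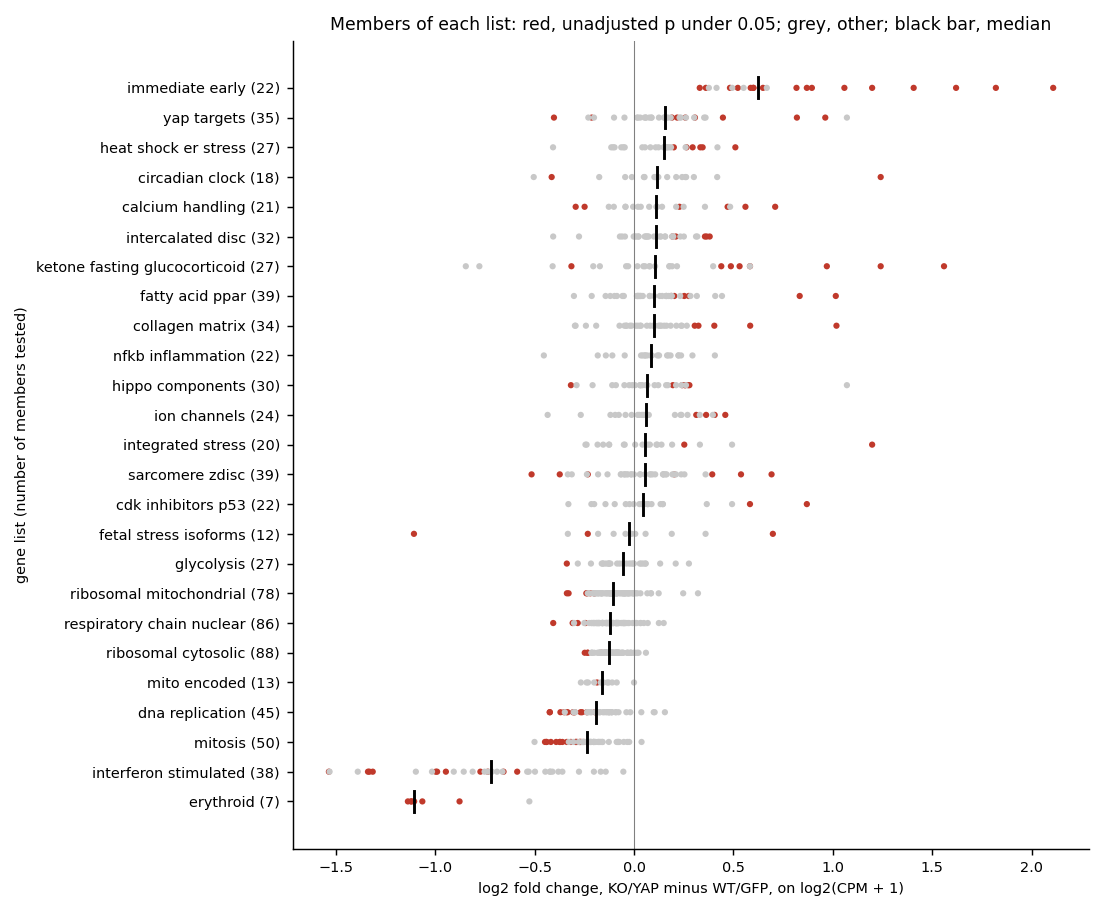
Log2 fold change between KO/YAP and WT/GFP of every tested member (points) of 25 gene lists, with the number of members tested in parentheses and a black bar at the median. Red marks an unadjusted p below 0.05; immediate early genes lie to the right (median 0.62), and interferon-stimulated (-0.72) and erythroid genes (-1.11) to the left.

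Genes linked to *Xirp2* were examined on their own, since they are inherited together with the knockout allele. Within 10 Mb of *Xirp2*, 95 genes were tested and 13 (13.7%) had an unadjusted p below 0.05, beside 8.4% of all genes, and *Xirp2* and *Gm13601* were the only called genes there. Without these 2 the share was 11 of 93 (11.8%). Their median absolute log2 fold change was 0.12, the same as that of all genes at 2 decimals. Of the 88 tested in uninjected hearts as well, 43 (48.9%) had the same direction there. With *Xirp2* and *Gm13601* left out, the share was 14.3% within 5 Mb and 10.4% within 20 Mb. Without WT/GFP replicate 1 it was 4.76% within 5 Mb, 6.45% within 10 Mb and 6.49% within 20 Mb, beside 5.45% of all genes in that fit. Without WT/GFP replicate 4 these shares were 23.8%, 16.1% and 14.3%, beside 10.6% of all genes. Fits without another library gave shares between these. *Ttn*, the giant sarcomere spring protein 9.18 Mb away, held 1446 to 2418 CPM in WT/GFP and 2106 to 3762 CPM in KO/YAP (log2 fold change 0.69, SE 0.20, limma adjusted p = 0.529). *Ifih1*, the RNA sensor MDA5, is an interferon-induced gene and held 14.1, 11.9, 7.07 and 6.79 CPM in WT/GFP and 4.17 to 6.98 CPM in KO/YAP. *Nfe2l2*, the antioxidant regulator NRF2, held 50.3 to 71.0 and 71.5 to 87.5 CPM.

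**Figure D5:**
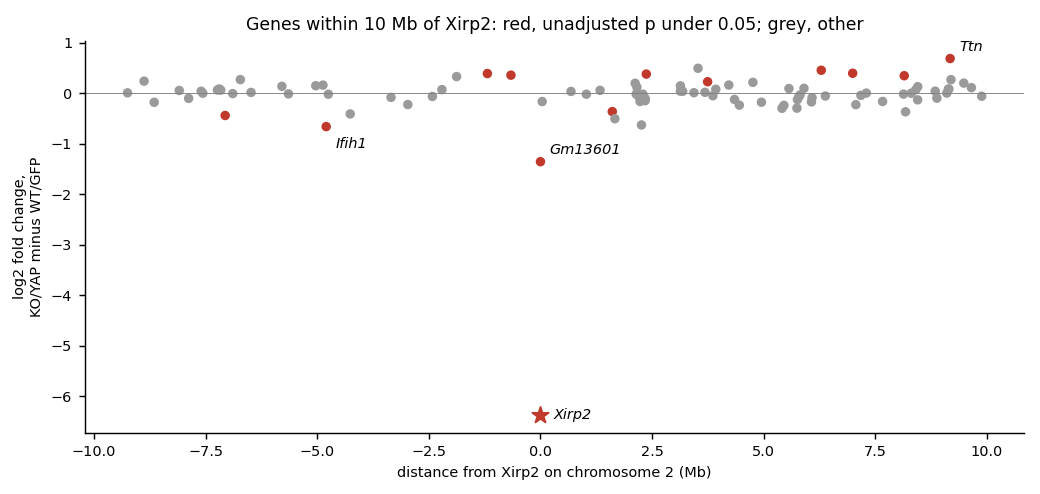
Log2 fold change between KO/YAP and WT/GFP on the vertical axis for the 95 tested genes within 10 Mb of *Xirp2*, by distance from *Xirp2* in Mb on the horizontal axis; the star is *Xirp2*, red marks an unadjusted p below 0.05 and grey the other genes. *Xirp2* at -6.36 and *Gm13601* stand below the rest, which lie within 1 of 0.

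Of the genes with the largest differences among those at an unadjusted p below 0.01 without overlap, several spread widely in the other groups. *B3gnt5*, a glycolipid glycosyltransferase, held 3.07 to 6.10 CPM in WT/GFP and 0.343 to 1.601 CPM in KO/YAP, and 0.447 to 7.22 CPM in WT/YAP. *Slc15a2*, a peptide transporter, held 0.110 to 3.48 CPM in WT/GFP, 4.12 to 14.2 CPM in KO/YAP, 5.17 to 8.20 CPM in WT/YAP and 6.49 to 34.4 CPM in KO/GFP, so that WT/GFP was the lowest group. *Thbs1*, a matricellular activator of latent TGF-β, held 39.4 to 99.4 CPM in WT/GFP and 113.5 to 145.2 CPM in KO/YAP, with WT/YAP at 77.4 to 88.8 CPM and KO/GFP at 29.2 to 60.4 CPM. *Rbm38* and *Resf1* were higher by 0.99 and 0.97 and *Gm5641* and *Gm27177* lower by 1.22 and 1.25, none of them called by limma. edgeR's exact test and DESeq2 called *B3gnt5*, *Resf1* and *Gm5641*, and limma called *B3gnt5* without KO/YAP replicate 4.

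Markers of the other cell types did not separate the groups as the erythroid ones did. All 5 tested atrial markers, which include *Nppa*, were lower in KO/YAP, with a median log2 fold change of -0.18. Their relative level overlapped, at -0.29 to 0.21 in WT/GFP and -0.66 to -0.04 in KO/YAP. All 4 tested neutrophil markers were lower too. The 3 tested skeletal muscle markers summed to 1782 to 2282 CPM in WT/GFP and 1721 to 1759 CPM in KO/YAP without overlap, with 1 higher and 2 lower. Fibroblast markers, all 10 tested, summed to 2317 to 2761 CPM in WT/GFP and 2486 to 2949 CPM in KO/YAP, and 1475 to 1904 CPM in KO/GFP. Endothelial markers, all 10 tested, summed to 1846 to 2006 and 1864 to 1955 CPM, and smooth muscle and pericyte markers to 3145 to 3443 and 3498 to 3841 CPM. The last did not overlap, and *Acta2*, smooth muscle actin, held 504.3 to 844.4 CPM in WT/GFP and 840.3 to 1252 CPM in KO/YAP, with 1 library of each group at the same height (log2 fold change 0.70, SE 0.17, limma adjusted p = 0.499). Of these 10 markers, however, 6 were higher and 4 lower, with a median log2 fold change of 0.04. Only 1 had an unadjusted p below 0.05, beside 4.45% of all genes higher at that p. Their relative level overlapped, at -0.09 to 0.10 in WT/GFP and -0.09 to 0.17 in KO/YAP.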

How the data were processed

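Per the labels the tissue was heart apex, while the study's methods name cardiac ventricles. Polyadenylated RNA was sequenced. The authors trimmed reads with Cutadapt 2.3, aligned them with HISAT2 2.1.0 to GRCm38, counted them with StringTie 1.3.4 and normalized with edgeR 3.26.1. The deposited signal values are CPM on scaled library sizes. Values were whole multiples of 1 read for at least 99.9% of entries within 0.01 read, and these reads fed the count tests. Columns outside the samples numbered 0. Genes with CPM above 1 in at least 4 of 8 libraries were fitted with limma 3.58.1 (trend) on log2(CPM + 1), with Benjamini-Hochberg adjustment and a threshold of 0.05. Only the 8 libraries entered, because KO/GFP libraries spread more widely. Uninjected hearts were sequenced and normalized separately and were tested within their own table. A Euclidean distance between libraries was tested by exact permutation. edgeR 4.0.16, DESeq2 1.42.0, other pseudocounts (0.1 and 5), filters, scalings and libraries left out were alternatives. Tools were tested on simulated data. P-values set a difference against the spread between these samples, and the permutation p ranks a distance among divisions of the libraries. Of 15327 listed genes 15320 matched GENCODE M21, an annotation of the same build, and promoter sequences are from RefSeq.

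The members and gene lists were chosen with earlier results of these data known. Named genes were *Xirp2*, *Xirp1*, *Yap1* and *Wwtr1*, all called genes, the 8 largest differences per direction at an unadjusted p below 0.01 without overlap, up to 4 members per list, genes within 10 Mb of *Xirp2* at an unadjusted p below 0.05, *Ddx3y* and *Xist*, and up to 8 per direction of the genes called in uninjected hearts with the same direction. *Clca3a1*, *Fos*, *Nr4a1*, *Ifit1*, *Gbp3*, *Isg15*, *Alas2*, *Mki67*, *Top2a*, *Ccn1*, *Ankrd1*, *Myh7*, *S100a1*, *Itpr2* and the genes opposite in direction to uninjected hearts were added after their values were seen. Some items are not reported here.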

Additional observations from a re-analysis of the deposited data

Results flagged for a closer look

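Among 156 groups of 4 libraries examined for 1 library far from the other 3, 9 stood out, where chance gives about 1 in 20, or 7.8. WT/GFP replicate 4 stood apart for *Ddx3y*, at 0.110 CPM beside 54.2 to 56.7 CPM, for *Wwtr1*, at 105.4 CPM beside 112.2 to 112.8 CPM, for the Xin family score, at 0.19 beside -0.07 to -0.05, and for the erythroid score, at 0.87 beside -0.33 to -0.25. WT/GFP replicate 1 stood apart for *Inhbb*, at 1.91 CPM beside 1.39 to 1.47 CPM, and for *Timeless*, at 29.2 CPM beside 20.1 to 20.7 CPM. WT/GFP replicate 3 stood apart for mitochondrially encoded genes, at 0.36 beside -0.15 to -0.07. KO/YAP replicate 2 stood apart for heat shock and endoplasmic reticulum stress genes, at 0.0316 beside 0.15 to 0.16. KO/YAP replicate 3 stood apart for the single lung marker tested, at -0.0083 beside -0.51 to -0.49.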

How the results depend on the processing

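The 3 called genes became 6 with robust moderation, 24 with edgeR's exact test, 44 with DESeq2 and 5 with a sex-linked covariate, and 6, 21 and 1 of the last 3 counts were higher in KO/YAP. DESeq2 and the exact test shared 19 genes. Leaving out 1 library gave 1 to 13 called genes (0 to 4 of them higher) and 796 to 1547 genes at an unadjusted p below 0.05, lowest without WT/GFP replicate 1 and highest without WT/GFP replicate 4. *Xirp2* was called in all 23 alternatives. The fit with the replicate number as a block called 1 gene, *Xirp2*, but the correlations of same-numbered libraries, from -0.01 to 0.13, do not show that numbers pair the hearts. The excess distance between groups ranged from 0.893 to 4.442 without 1 library, and passed the exact permutation test without WT/GFP replicate 3 or 4 and, at 2.518, without genes of chromosomes X and Y. The share of genes within 10 Mb of *Xirp2* at that unadjusted p was 8.7% in the fit over all 16 libraries (6.08% of all genes) and 8.42% to 17.9% without 1 library (5.45% to 10.6% of all genes), and it was 11.8% with *Xirp2* and *Gm13601* left out, a choice made after seeing the data, and the share of genes called in uninjected hearts that kept their direction was 52.4% to 60.3%. *Yap1* lay between -0.0383 and 0.0214 without 1 library and changed sign, at 0.0214, 0.0006 and 0.0015, without KO/YAP replicate 3, WT/GFP replicate 1 or WT/GFP replicate 4. Depth limits genes near 1 CPM, where 1 CPM is under 20 reads.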
